A study of Mus musculus with 16 samples.

Results

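The 8 smooth muscle type contractile genes Acta2, Actg2, Myl9, Myh11, Tagln, Cnn1, Tpm1 and Tpm2 were followed through RNA sequencing of mouse tumours with and without Trp53bp1, which encodes 53BP1, a protein that steers the repair of DNA breaks. Their entries were taken by gene symbol, and all 8 were found among the 18635 genes listed for the series. They were chosen by their expression differences between the genotypes of these same samples, already known when the list was made. Those differences are therefore described without p-values, and any count of members called is a description only.

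These genes encode parts of the machinery that shortens a smooth muscle cell. Actin filaments slide along myosin when kinases phosphorylate the myosin regulatory light chain, and tropomyosin, calponin and transgelin lie along the actin filament and set its stability and its access to myosin. Many of the genes are targets of serum response factor (SRF), which binds CArG boxes in their promoters together with myocardin or the myocardin-related factors, and TGF-beta signalling feeds into that control. In tumours they mark vessel wall cells and myofibroblasts, and some are also made by the cancer cells themselves or by skeletal muscle.

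The samples formed 4 groups. ID8, a mouse ovarian surface epithelial cancer line, gave 3 wild-type (WT) and 3 Trp53bp1 KO tumours, and KPC, a mouse pancreatic cancer line, gave 5 of each genotype. The labels call all samples tumours from lines implanted in syngeneic mice, with the knockout made in the lines, while their extraction text speaks of cells. The strain, age and site, and whether a knockout line is 1 clone, are not given in the sources used here. A difference between genotypes therefore cannot be told apart from a difference between the lines compared. Library totals were 17902867 to 19727536 counts, so the floor of 3 counts corresponded to 0.150 to 0.165 CPM (counts per 1000000, scaled by TMM over the 16 libraries), the unit of every level below. Intervals and floors cover counting error only. Trp53bp1 was 47.4 ± 2.78 CPM in ID8 wild type and 18.9 ± 0.502 CPM in ID8 knockout (SD, n = 3 each), and 50.3 ± 2.93 and 33.8 ± 3.79 CPM in KPC (SD, n = 5 each), with no overlap and edgeR adjusted p of 1.15e-10 and 0.004. The ID8 libraries held 0 counts of Ptprc, Itgam and Adgre1 of leukocytes and of Cdh5 and Kdr of endothelial cells. Other endothelial markers were present, among them Esam (131 CPM in ID8 wild type) and Flt1 (27.9 CPM). Of 12 endothelial markers, 4 averaged at least 1 CPM in ID8 wild type and 3 in ID8 knockout. Their summed level was 159 to 170 CPM in ID8 wild type and 173 to 204 CPM in ID8 knockout. Whether the ID8 RNA came from whole tumours or from cells alone is not settled by the sources used here, a limit on every value set across the lines. In the KPC libraries the summed level of 20 skeletal muscle markers was 819 to 42410 CPM across wild-type tumours and 30.6 to 8634 CPM across knockout tumours.

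The contractile genes were at very different levels in the ID8 and KPC lines, apart from Tpm1. In ID8 wild type 3 of the 8 averaged at least 1 CPM, whereas all 8 did in both KPC groups. In ID8 knockout libraries Acta2, Myl9 and Tpm1 were lower than in every wild-type library, as were Cnn1, Tpm2 and Myh11 on few counts. Of all genes tested in ID8, 29.3% were lower in this way. The KPC genotypes overlapped for all 8 genes, where 11.8% of all genes tested did not overlap. With bulk RNA, fewer cells of a type and less RNA per cell cannot be told apart. Per kilobase of the longest annotated transcript, Tpm1 came first in ID8 wild type at 338 ± 21.6 CPM per kb (SD, n = 3), followed by Myl9 at 4.85 ± 0.709 and Acta2 at 2.42 ± 0.31 CPM per kb, with no overlap between these neighbours. The other 5 were at 0.381 CPM per kb or less there. In KPC wild type the order per kilobase was Tpm1 (530 ± 489 CPM per kb, SD, n = 5), Tpm2 (151 ± 140), Acta2 (136 ± 31.8), Tagln (104 ± 32.2), Myl9 (50.7 ± 11.9), Actg2 (17.4 ± 6.58), Myh11 (3.97 ± 1.72) and Cnn1 (3.1 ± 1.25). The ranges of Tpm1 and Tpm2, of Tpm2 and Acta2, of Acta2 and Tagln, and of Myh11 and Cnn1 overlapped across libraries. Compared within each library, Tpm1 was above Tpm2, and Acta2 above Tagln, in every KPC wild-type library. The order of Tpm2 and Acta2, and that of Myh11 and Cnn1, changed from library to library. Tagln and Myl9, and Myl9 and Actg2, did not overlap.

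**Figure D1:**
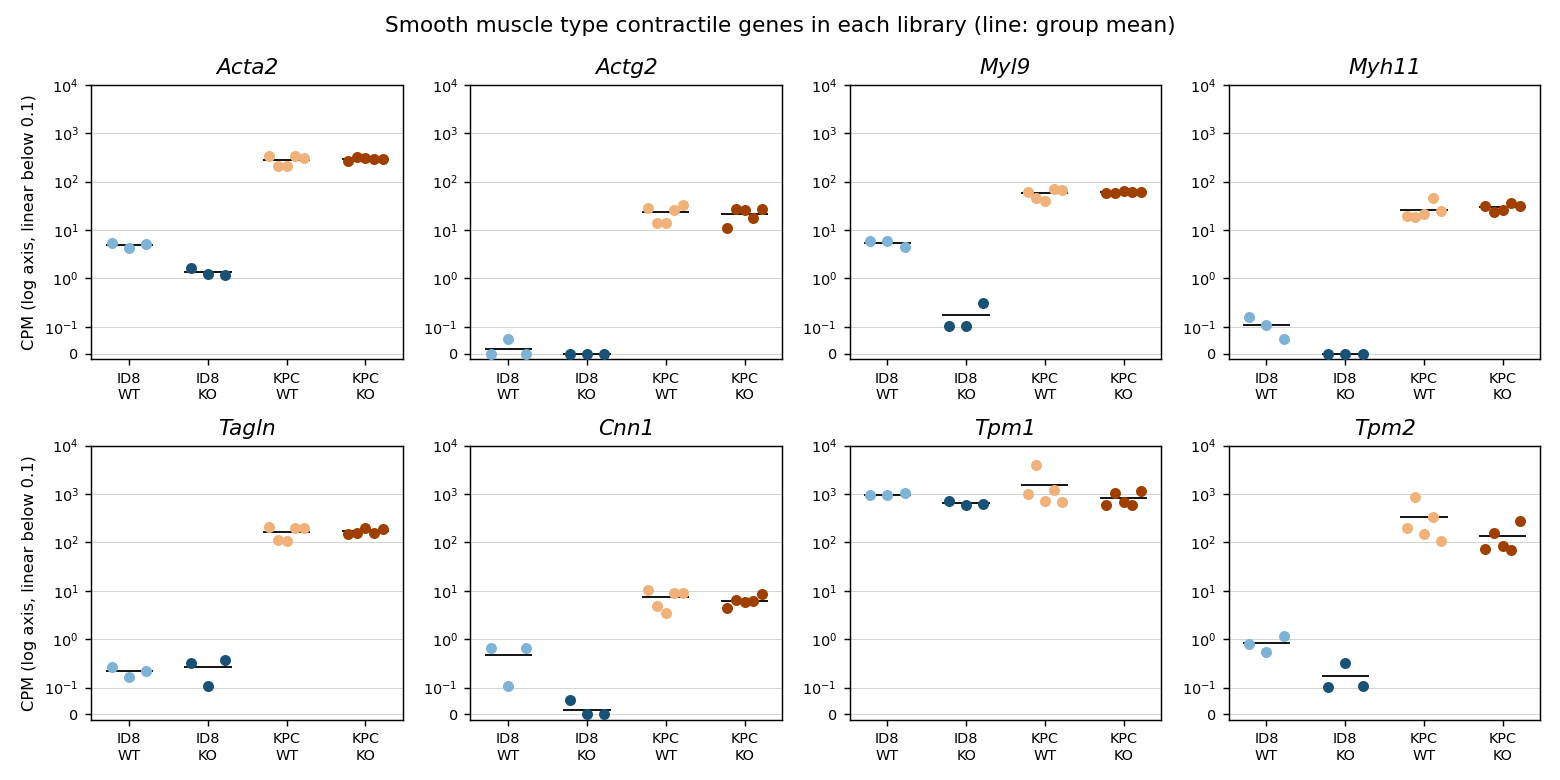
Level of the 8 genes in each of 16 libraries, in CPM on an axis that is logarithmic above 0.1 and linear below; points are libraries and lines are group means. Tpm1 lies between 584 and 4025 CPM in all groups, while the other 7 genes are far lower in ID8 than in KPC and Actg2 and Myh11 are at 0 in the 3 ID8 knockout libraries.

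The promoters are printed for Myl9, Acta2 and Tpm1, the members with enough reads to be fitted in ID8. Each sequence is the RefSeq window from 250 bases before to 50 bases after the transcript start, on build GRCm38.p6, which is not the build of the count tables. The table held 5 of the 8 members, and Tagln, Actg2 and Myh11 are named only. Capitals mark CArG boxes, counted also with up to 1 mismatch in the inner 6 bases, and the MCAT element CATTCC or its reverse complement GGAATG, to which TEAD factors bind. The Myl9 window is chr2:156775214-156775513 on the plus strand, the Acta2 window chr19:34255324-34255623 on the minus strand, and the Tpm1 window chr9:67049164-67049463 on the minus strand.
Myl9: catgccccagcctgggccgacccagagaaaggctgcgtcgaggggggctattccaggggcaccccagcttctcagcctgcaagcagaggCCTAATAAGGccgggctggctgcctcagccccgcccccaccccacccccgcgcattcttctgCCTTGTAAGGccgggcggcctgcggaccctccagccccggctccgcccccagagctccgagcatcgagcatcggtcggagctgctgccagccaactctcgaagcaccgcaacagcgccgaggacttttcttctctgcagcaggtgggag
Acta2: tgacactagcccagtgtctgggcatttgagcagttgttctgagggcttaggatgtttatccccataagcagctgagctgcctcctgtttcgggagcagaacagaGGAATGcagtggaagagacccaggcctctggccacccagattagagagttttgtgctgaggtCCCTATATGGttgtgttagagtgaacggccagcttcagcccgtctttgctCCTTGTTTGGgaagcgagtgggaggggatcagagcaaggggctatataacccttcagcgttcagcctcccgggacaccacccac
Tpm1: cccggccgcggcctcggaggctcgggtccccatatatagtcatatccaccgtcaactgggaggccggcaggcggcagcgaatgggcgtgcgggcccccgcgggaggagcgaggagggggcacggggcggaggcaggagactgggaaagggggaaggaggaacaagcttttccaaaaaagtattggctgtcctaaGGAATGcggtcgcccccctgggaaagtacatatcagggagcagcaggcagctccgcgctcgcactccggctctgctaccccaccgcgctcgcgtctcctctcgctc
Myl9 had the only full CArG box among the 5 windows, starting 161 bases before the transcript start, and a second copy with 1 mismatch at 99 bases before it. Acta2 had CArG copies with 1 mismatch at 84 and 34 bases before the start and an MCAT element at 146 bases before it. All distances run from the annotated RefSeq start. In the Acta2 window a TATA-like stretch, tatataa, lies after that start, and the start in use in these samples was not measured. Tpm1 had an MCAT element at 56 bases before the start and no CArG copy, and the Cnn1 and Tpm2 windows held neither motif. Of 32851 promoter windows of the same length, read on both strands, 1.629% held a full CArG box, 9.984% a copy with up to 1 mismatch and 14.663% an MCAT element. The motifs do not overlap each other in these windows, and a match is a description of the letters only.

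Acta2 encodes smooth muscle alpha actin, the usual marker of vessel wall cells and myofibroblasts. In ID8 it was 5.39, 4.21 and 5.20 CPM in the wild-type libraries and 1.63, 1.21 and 1.16 CPM in the knockout libraries. Every knockout library was below every wild-type library, and the log2 difference was -1.88 (SE 0.183). The sums of 274 and 76 counts gave a ratio of 3.7 (95% exact interval 2.86 to 4.84) for wild type over knockout. In KPC it was 337, 209, 207, 333 and 301 CPM in wild type and 266, 317, 314, 293 and 299.5 CPM in knockout. Wild-type replicates 2 and 3 were lowest, the knockout libraries lay within the wild-type range, and the log2 difference was 0.086 (SE 0.142).

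Actg2 encodes smooth muscle gamma actin, typical of gut and bladder muscle. It had 1 count in all ID8 wild-type libraries together and 0 in the knockout libraries, which is under the floor in both, so no fold is given. In KPC it was 28.6, 13.8, 14.1, 26.4 and 33.1 CPM in wild type and 10.9, 27.7, 26.5, 17.6 and 26.9 CPM in knockout. The genotypes overlapped, with a log2 difference of -0.096 (SE 0.317). Within wild type, replicates 2 and 3 were lowest, as for Acta2, and knockout replicate 1 was below both. The actin genes resemble each other in sequence, and the counting tool shares ambiguous reads among similar genes. How far this affected the split between Acta2, Actg2 and the skeletal muscle actin Acta1 was not tested. KPC wild-type replicate 2, the library highest in Acta1 at 7291 CPM, was at 209 CPM for Acta2 and 13.8 CPM for Actg2.

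Myl9 encodes the regulatory light chain of smooth muscle myosin, the site at which phosphorylation switches contraction on. It showed the widest genotype gap of the 3 members fitted in ID8. Its levels were 5.93, 5.94 and 4.55 CPM in wild type and 0.105, 0.105 and 0.316 CPM in knockout. These are 110, 110 and 84 counts against 2, 2 and 6 counts, and 2 of the 3 knockout libraries are under the floor of 3 counts. The groups did not overlap, the log2 difference was -4.91 (SE 0.296), and the ratio of the sums was 31.2 (95% exact interval 16.8 to 65.8). Myl9 passed the count filter in ID8 only through the wild-type libraries. In KPC it was 61.4, 46.9, 39.8, 71.1 and 66.9 CPM in wild type and 59.0, 59.2, 63.0, 60.1 and 61.2 CPM in knockout. The 5 knockout libraries lay inside the wild-type range, and the log2 difference was 0.062 (SE 0.138).

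Myh11 encodes the smooth muscle myosin heavy chain, a marker of mature smooth muscle. In ID8 it had 3, 2 and 1 counts in the wild-type libraries and 0 in each knockout library, at or under the floor in every library. In KPC it was 19.1, 18.4, 21.7, 45.6 and 25.3 CPM in wild type and 32.0, 23.5, 26.5, 35.7 and 31.5 CPM in knockout. Wild-type replicate 4 stood above all other KPC libraries, and the genotypes overlapped with a log2 difference of 0.18 (SE 0.233). Without that library the difference was 0.47.

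Tagln encodes transgelin, a protein that bundles and steadies actin filaments and appears early in smooth muscle differentiation. It was near the floor in ID8, with 5, 3 and 4 counts in wild type and 6, 2 and 7 counts in knockout. The ratio of the sums was 0.822 (95% exact interval 0.351 to 1.88), and the groups overlapped, so a genotype difference was not detectable at this depth. In KPC it was 213, 114, 107, 198 and 198 CPM in wild type and 151, 160, 195, 158 and 186 CPM in knockout. The knockout libraries again lay inside the wild-type range, and the log2 difference was 0.017 (SE 0.196).

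Cnn1 encodes calponin, which binds actin and slows the myosin cycle. In ID8 it had 12, 2 and 12 counts in wild type and 1, 0 and 0 in knockout. All knockout libraries were below all wild-type libraries, although wild-type replicate 2 and the knockout libraries were under the floor, and the ratio of 26 to 1 counts was 26.7 with a wide 95% exact interval of 4.39 to 1100. The KPC levels of Cnn1 were 3.55 to 10.4 CPM (wild type) and 4.36 to 8.79 CPM (knockout), with a log2 difference of -0.25 (SE 0.295).

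Tpm1 and Tpm2 encode tropomyosins, the coiled coils that run in the groove of the actin filament. Tpm1, which many cell types express, was 948, 935 and 1049 CPM in ID8 wild type and 707, 591 and 627 CPM in ID8 knockout. The groups did not overlap, the log2 difference was -0.60 (SE 0.0639), and the ratio of the sums was 1.52 (95% exact interval 1.5 to 1.54). Tpm2, which is more typical of muscle, had 15, 10 and 21 counts in ID8 wild type and 2, 6 and 2 in knockout. All Tpm2 knockout counts were below the wild-type counts, with a ratio of the sums of 4.73 (95% exact interval 2.35 to 10.5). In KPC Tpm1 was 997, 4025, 724, 1237 and 674 CPM in wild type and 584, 1070, 686, 598 and 1163 CPM in knockout. Tpm2 was 196, 851, 150, 341 and 107 CPM in KPC wild type and 74.4, 157, 86.0, 68.9 and 277 CPM in KPC knockout. Wild-type replicate 2 was the highest library for both tropomyosins, and the genotypes overlapped for both. The log2 differences of -0.93 (SE 0.514) for Tpm1 and -1.33 (SE 0.639) for Tpm2 became -0.14 and -0.57 without that library.

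In the ID8 fit, which tested 11933 genes, 3 of the 8 members passed the count filter and all 3 were called lower in knockout by edgeR at an adjusted p of 0.05. Of all genes tested there, 50.8% were called, 25.5% were called lower, and 29.3% had every knockout library below every wild-type library. The choice of the members used this contrast, so nothing is read from their count. The other 5 members, at 46 counts or fewer over the wild-type libraries, were not fitted. In the KPC fit of 14283 genes all 8 members passed the filter and 0 were called by edgeR, where 13.7% of all genes were called. The count was 0 at an unadjusted p under 0.05 as well, and 0 with DESeq2 and with limma-voom. Replicates spread more in KPC, with a biological coefficient of variation of 25.1% against 5.08% in ID8, so the same difference is resolved less well there. Of all genes tested in KPC, 11.8% had genotypes that did not overlap, against 0 of the 8 members.

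The knockout difference in KPC minus that in ID8, on the log2 scale, was 1.99 (SE 0.274) for Acta2, 4.99 (SE 0.391) for Myl9 and 4.06 (SE 1.07) for Cnn1, the 3 members called in the interaction fit. In that fit 21.8% of 14921 genes were called, 11.6% in this direction. The values are built from the contrasts used to choose the members and stand as a description. Cnn1 was not fitted in ID8 alone and entered this fit through the KPC libraries. Its ID8 side rests on 26 wild-type counts against 1 in knockout. The interaction was -0.29 for Tpm1, -0.24 for Tagln, 0.89 for Tpm2, 1.82 for Actg2 and 4.32 for Myh11, none of which was called. Without ID8 knockout replicate 2, and without replicate 3, Cnn1 was at 3.62 and no longer called. Myh11 was called in 4 of the alternatives, among them DESeq2, although its ID8 level rests on 6 counts.

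The members were chosen by genotype, and that choice did not name the contrast of KPC wild type with ID8 wild type. Earlier results of these data were known at the time, so this contrast may not be independent of the choice. Of the 3 members with enough ID8 reads to be fitted there, Acta2 and Myl9 were higher in KPC and Tpm1 did not pass the test, where 44.3% of 14507 tested genes were called higher and 79.1% were called in either direction. Acta2 was higher by 5.78 on the log2 scale (SE 0.255, edgeR adjusted p = 1.46e-07), with a count ratio of 56.2 (95% exact interval 49.9 to 63.5). Myl9 was higher by 3.35 (SE 0.233, edgeR adjusted p = 1.98e-06), with a count ratio of 10.4 (9.3 to 11.8). Both genes had every KPC library above every ID8 library, as did 44.6% of all genes tested. The other 5 members entered this fit only through the KPC libraries and so had to differ, and their ratios of KPC to ID8 counts are given as a description. They were 767 for Tagln (95% exact interval 439 to 1480, from 12 ID8 counts), 395 for Tpm2 (296 to 539) and 15.8 for Cnn1 (10.7 to 24.3).

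For Myh11 the 6 ID8 counts gave a ratio of 241 (95% exact interval 110 to 656), and for Actg2 the 1 ID8 count gave 1290 (231 to 50800). Tpm1 overlapped between the lines, with a log2 difference of 0.63 (SE 0.637, edgeR adjusted p = 0.388) that was -0.12 without KPC wild-type replicate 2. Rgs5 and Pdgfrb, which define pericytes, were 126 ± 35.4 and 127 ± 18.5 CPM in KPC wild type (SD, n = 5) and 0.216 and 0.054 CPM in ID8 wild type. Line, tumour site, host cells and the processing of each line cannot be told apart in this contrast.

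By CPM per kilobase, the smooth muscle type members were a smaller share in ID8 than in KPC for the actins, regulatory light chains, myosin heavy chains, transgelins and calponins, and the tropomyosin shares overlapped between the lines. Acta2 and Actg2 were 0.0498% ± 0.00355 of the actins measured with Actb and Actg1 in ID8 wild type and 0.021% ± 0.00415 in ID8 knockout (SD, n = 3 each). In KPC they were 4.89% ± 1.2 in wild type and 4.07% ± 0.67 in knockout (SD, n = 5 each). Myl9 was 1.1% ± 0.153 of the regulatory light chains, with Myl12a and Myl12b, in ID8 wild type and 0.0464% ± 0.0317 in ID8 knockout. Its KPC shares were 12.6% ± 3 and 12% ± 0.601. The ID8 genotypes did not overlap in either family, and the KPC genotypes did. Tagln, against Tagln2 and Tagln3, went from 0.0454% in ID8 wild type to 22.2% in KPC wild type. Tpm1 and Tpm2 together were 38.6% ± 0.818 of the tropomyosins in ID8 wild type and 30.9% ± 1.44 in ID8 knockout, with no overlap, and 46.2% ± 17.8 and 32.8% ± 8.83 in KPC, with overlap. In ID8 wild type nearly all of that share was Tpm1 (338 CPM per kb, against 0.381 for Tpm2), which many cell types express. In KPC Tpm1 and Tpm2 varied with skeletal muscle markers (r = 0.801 and 0.9, given below).

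**Figure D2:**
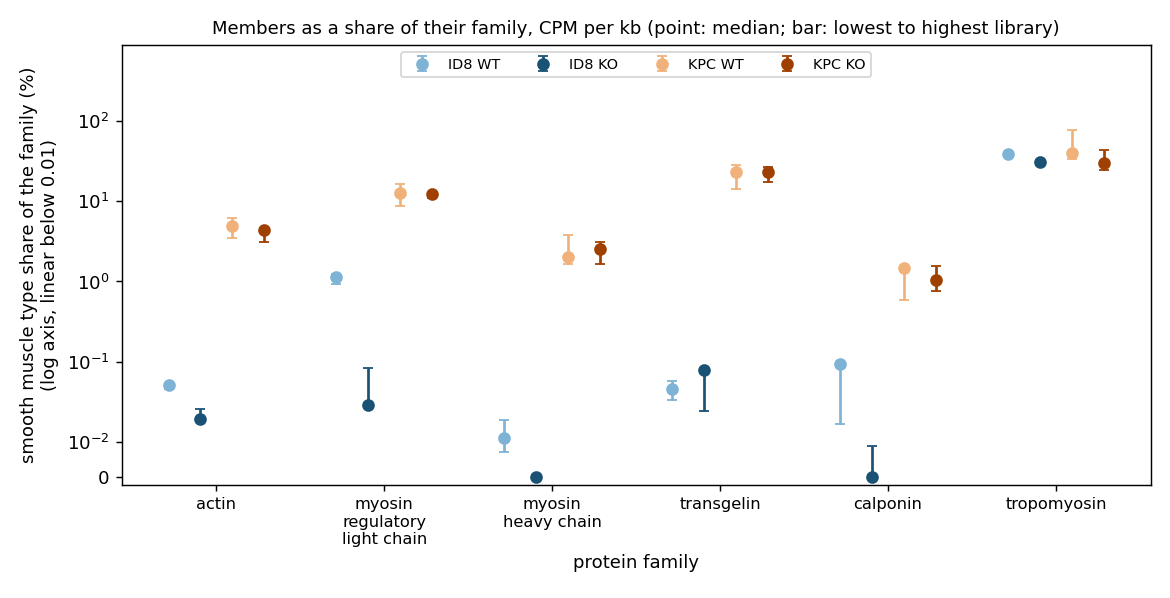
Share of each protein family held by its smooth muscle type members, in percent of CPM per kb on an axis that is logarithmic above 0.01, for the 4 groups; points are medians and bars run from the lowest to the highest library. For the tropomyosins most of the share is Tpm1, which many cell types express. Myl9 falls apart by genotype in ID8 (0.934 to 1.23% against 0.0279 to 0.083%) and overlaps in KPC (8.79 to 16.3% against 11 to 12.5%).

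Within a genotype the contractile genes of KPC fell into groups that varied together. After the genotype mean was removed, log2(CPM + 1) of Acta2 and Tagln correlated with r = 0.952 over the 10 KPC libraries, Myl9 and Tagln with r = 0.921, Acta2 and Myl9 with r = 0.903, and Tagln and Cnn1 with r = 0.906. Actg2 followed these genes with r between 0.694 (Myl9) and 0.838 (Cnn1). Tpm1 and Tpm2 correlated with each other at r = 0.951, and with the other 6 members only between r = -0.291 and 0.079. Myh11 lay between, from r = -0.266 with Tpm1 to r = 0.55 with Myl9. The points share libraries, depth and scaling, and these correlations are given as a description.

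**Figure D3:**
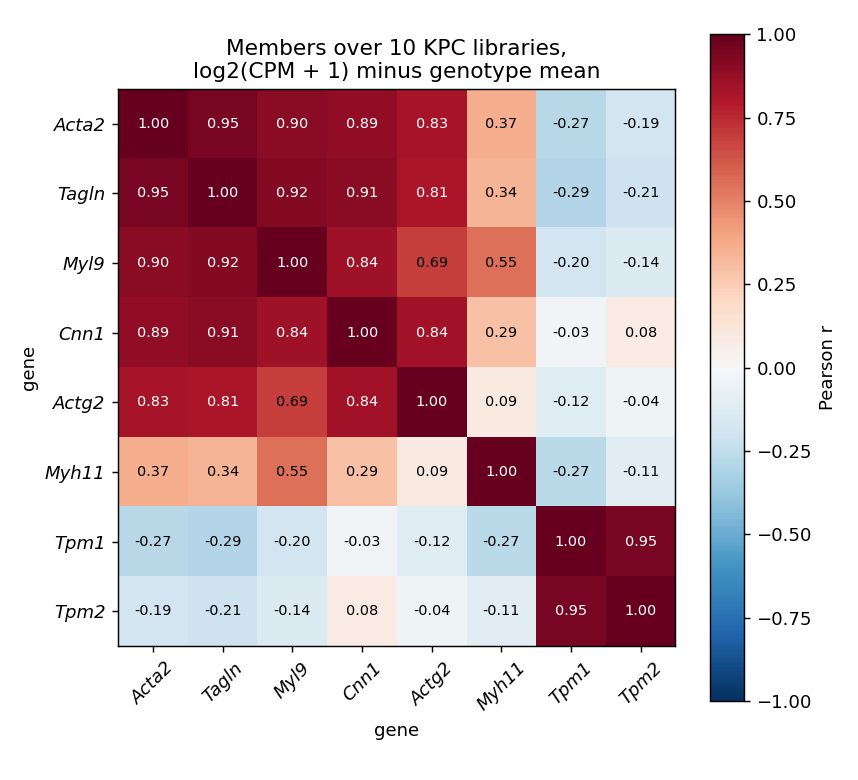
Pearson r between members over the 10 KPC libraries after removal of genotype means, from log2(CPM + 1). Acta2, Tagln, Myl9, Cnn1 and Actg2 form a block with r of 0.694 to 0.952, Tpm1 and Tpm2 a pair at 0.951, and Myh11 reaches at most 0.55.

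Other cell types' markers moved with some of these genes. The skeletal muscle score, the mean log2(CPM + 1) of 20 muscle genes, correlated with Tpm2 at r = 0.9 and with Tpm1 at r = 0.801 over the 10 KPC libraries, but with Acta2 at r = -0.096. The KPC wild-type library highest in both tropomyosins was also highest in the muscle markers, with Acta1 at 7291 CPM. Skeletal muscle expresses Tpm1 and Tpm2 as well. With the muscle score as a covariate the KPC genotype difference was 0.20 for Tpm1 and 0.048 for Tpm2 on the log2 scale. With the 4 libraries above 1000 CPM of Acta1 left out, it was -0.36 for Tpm1 and -0.99 for Tpm2. The libraries that were kept still differed in muscle RNA, with Acta1 at 804, 443.5 and 167 CPM in wild type and 12.4, 2.1 and 9.69 CPM in knockout.

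Myh11 moved with a different set. It correlated with the endothelial score at r = 0.853, the leukocyte score at r = 0.831, the pericyte score at r = 0.807 and the fibroblast score at r = 0.7. Acta2 correlated with the pericyte score at r = 0.048 and with the fibroblast score at r = 0.318. The mean score of all 8 members had Pearson's r = 0.624 and a Spearman rank correlation of 0.673 with the muscle score over the 10 KPC libraries, and r = 0.674 without the libraries farthest from the median. Without Tpm1 and Tpm2 in the score that r was -0.023. With the other 5 marker scores, r for all 8 members lay between -0.457 (epithelial) and 0.284 (endothelial), and the epithelial r was -0.762 without the libraries farthest from its median.

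**Figure D4:**
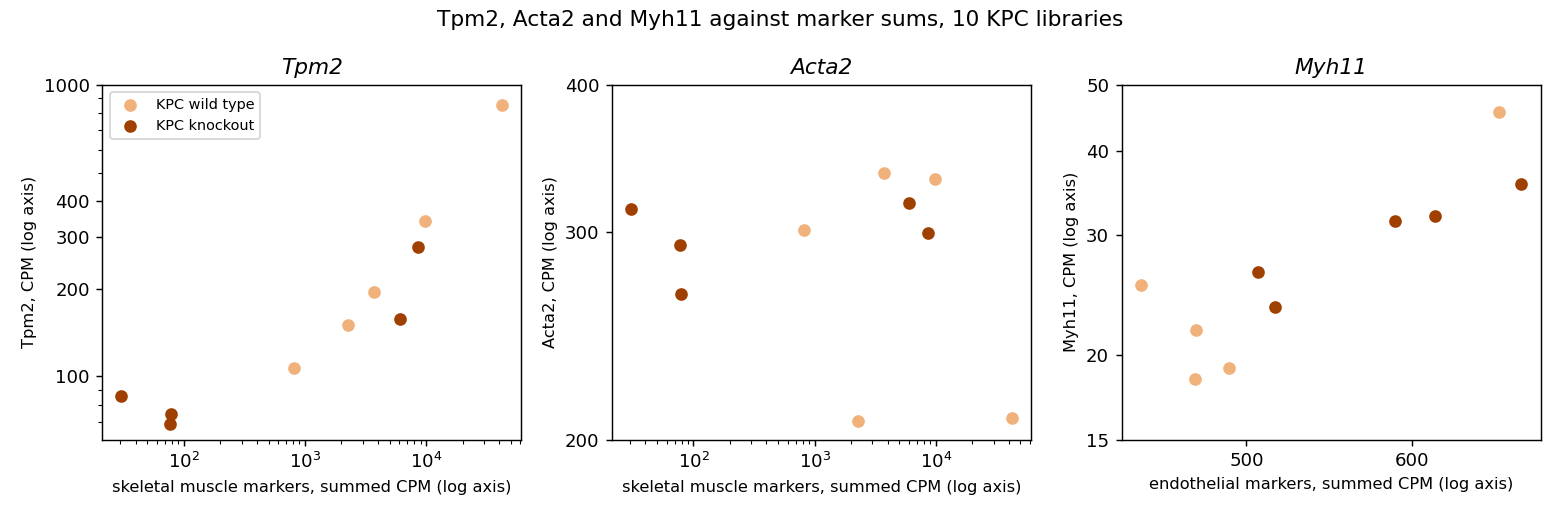
Tpm2 and Acta2 against the summed CPM of 20 skeletal muscle markers, and Myh11 against the summed CPM of 12 endothelial markers, in the 10 KPC libraries, all axes logarithmic. Tpm2 climbs from 68.9 to 851 CPM along the muscle markers while Acta2 stays between 207 and 337 CPM, and the 3 libraries highest in Myh11 are also the 3 highest in endothelial markers.

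The genes most like the members' mean pattern in KPC were ranked by r over the 10 libraries, among 13298 genes with at least 1 CPM. The r values were not tested, and the highest of so many over 10 libraries can be high by chance. Ap3m2 (r = 0.884), Sgsm1 (0.875), Fbln5 (0.872), Raet1e (0.869), Atp6ap1 (0.858), Fam151b (0.857), Runx1t1 (0.853) and Peg12 (0.851) came first. With Tpm1 and Tpm2 left out of the pattern, a choice made after seeing the data, the first 8 were Dlg4 (0.957), Numbl (0.947), Runx1t1 (0.927), Atp6ap1 (0.926), Fam151b (0.898), Fam76b (0.877), Aoc3 (0.872) and Arid5b (0.863). Runx1t1, Atp6ap1 and Fam151b are in both rankings.

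The summed level of fibroblast markers was high in ID8, whereas most markers of vessel wall cells, skeletal muscle and leukocytes were at or near 0. The fibroblast sum was 4926 to 5998 CPM in ID8 wild type and 4755 to 5321 CPM in knockout. Most of it came from Sparc (2758 and 2861 CPM, wild type first) and Fn1 (1619 and 1287 CPM). Of the 15 markers, 8 averaged at least 1 CPM in each genotype. Col1a2, Dpt, Pi16, Lum, Fap, Postn and Fbln1 were at 0.216 CPM or less in both genotypes. The cells that made these transcripts were not tested. Col3a1, a fibrillar collagen, averaged 344 ± 38 CPM with Trp53bp1 intact and 51.0 ± 8.67 CPM without it (SD, 3 libraries each), while Dcn, the matrix proteoglycan decorin, was 451.5 ± 26.7 and 599.6 ± 27.7 CPM. Of 12 pericyte markers, 2 were at 0 in all ID8 wild-type libraries and 3 in all knockout libraries, and 2 of them, Mcam and Notch3, averaged at least 1 CPM. The summed pericyte level was 40.9 to 48.8 CPM in wild type and 28.8 to 33.3 CPM in knockout, while Rgs5, Pdgfrb and Cspg4 were at 0.216 CPM or less in both genotypes. Acta1 was at most 0.108 CPM in ID8, and the summed muscle markers were 28.4 to 31.5 CPM in wild type and 9.545 to 11.6 CPM in knockout. The leukocyte sum was 11.0 to 12.8 CPM in ID8 wild type and 3.72 to 5.80 CPM in knockout, with Ptprc at 0. A single gene carried most of each of these 3 sums, Notch3 for pericytes, Actn3 for muscle (24.2 against 6.73 CPM, wild type first) and Cd68 for leukocytes (11.8 against 4.29 CPM). The part of these markers in the lower Acta2 and Myl9 was not tested.

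Among the regulators of the contractile genes, Srf fell in the ID8 knockout. It was 87.5, 86.4 and 83.9 CPM in wild type and 51.2, 53.2 and 55.3 CPM in knockout, with no overlap and a log2 change of -0.69 (SE 0.0523, edgeR adjusted p = 1.71e-08). In KPC it was 75.0 ± 5.49 and 74.7 ± 6.38 CPM (SD, n = 5 each), a log2 difference of -0.026 (edgeR adjusted p = 0.828). The difference between the lines was itself called, at 0.69 on the log2 scale. Myocd, the muscle-specific SRF partner, was 0.072 CPM in ID8 wild type, under the floor, and 0.897 ± 0.386 CPM in KPC wild type. Of the myocardin-related factors, Mrtfb did not pass the test in ID8 (-0.031, edgeR adjusted p = 0.788), and Mrtfa passed it narrowly (-0.18, edgeR adjusted p = 0.0485), with overlapping groups and loss of the call in DESeq2 (0.059).

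Of the 16 SRF and myocardin family regulators, 13 were tested in ID8, of which 6 rose and 4 fell, with a median log2 change of -0.01. Over all genes tested in ID8 the median was 0.006, with 50.8% called and 25.5% called lower, the shares beside which each list's ID8 count stands. Klf4, which represses smooth muscle genes, rose from 50.3 ± 2.29 to 79.9 ± 3.58 CPM (log2 change 0.67). Notch3, a Notch receptor also listed as a pericyte marker, fell from 43.3 ± 4.1 to 28.4 ± 2.4 CPM (-0.61). Unlike Rgs5 and Pdgfrb, Notch3 was not lower in ID8 wild type than in KPC wild type (30.7 ± 10.3 CPM). In KPC 4 of 15 tested were called, all lower, with a median of -0.35, against 13.7% called and a median of -0.012 over all genes tested. Gata6, listed as a factor that keeps smooth muscle differentiated, fell from 52.7 ± 12.7 to 26.3 ± 2.67 CPM (-1.02, edgeR adjusted p = 0.00441). It was higher in ID8 wild type, at 225 CPM, where Myh11 was 0.108 CPM, and the cells that made it were not tested. In the KPC knockout Wwtr1, the TEAD coactivator TAZ, fell by 0.41 on the log2 scale. The Notch target Heyl fell by 0.52 there, with 6 of its alternatives losing the call.

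Most of the non-muscle relatives of the members that were tested fell in the ID8 knockout. Of 16 listed, 14 were tested, 10 fell and 1 rose, with a median log2 change of -0.34, where 25.5% of all genes fell. The list also held a muscle gene, the cardiac actin Actc1, which had 0 counts in ID8 and was not tested there. Cnn3 (-0.067), Myl6b (0.113) and Myh14 (-0.68) did not pass the test. Cnn2, the calponin of non-muscle cells, fell from 182 ± 6.53 to 94.4 ± 1.92 CPM (-0.94, edgeR adjusted p = 9e-11). The cytoplasmic actins fell too, Actg1 from 5479 ± 361 to 3338 ± 65.2 CPM (-0.71) and Actb from 3972 ± 167 to 2708 ± 27.2 CPM (-0.55). Myh9, the main non-muscle myosin heavy chain, fell by 0.50, Myh10 by 0.355, and the light chains Myl12a by 0.42, Myl12b by 0.28 and Myl6 by 0.24 on the log2 scale. The Myl6 groups overlapped and its call was lost on leaving out each of 4 of the 6 libraries. Tpm3 rose by 0.28. The Myl9 difference of -4.91 is thus set beside changes of -0.42 and -0.28 in the light chain genes closest to it.

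In KPC 3 of 15 of these relatives were called, all higher, with a median of 0.035, where 13.7% of all genes were called. The 15 include the cardiac actin Actc1, which was not called and was highest, at 88.7 CPM, in wild-type replicate 2. Actg1 rose from 3319 ± 249 to 4423 ± 237 CPM (0.39, edgeR adjusted p = 0.00409), and its difference from ID8 was called in the interaction fit (1.13). Myh14, a non-muscle myosin of epithelia, rose from 16.4 ± 5.19 to 34.6 ± 6.06 CPM (1.05, edgeR adjusted p = 0.0163). Tpm3 rose by 0.28 (edgeR adjusted p = 0.0379), a call lost in 10 alternatives.

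**Figure D5:**
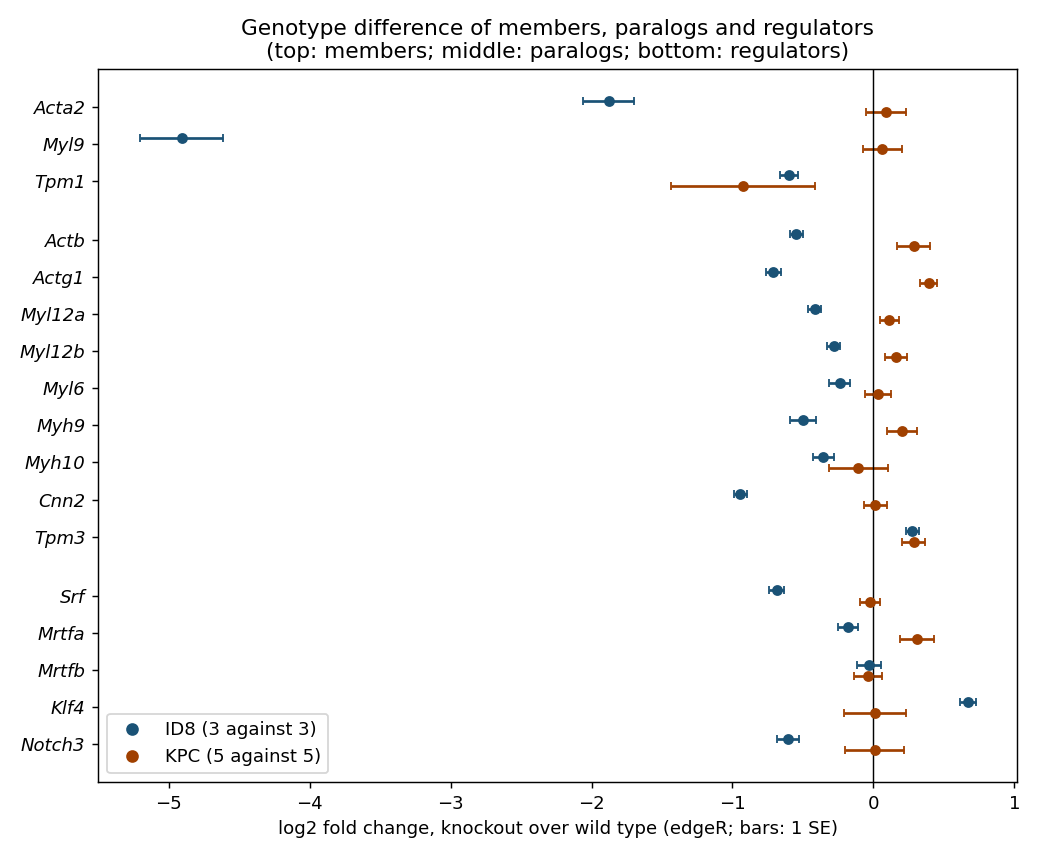
Log2 fold change of knockout over wild type with 1 SE in ID8 (3 against 3 libraries) and KPC (5 against 5) for the 3 members fitted in both lines, 9 relatives and 5 regulators. In ID8 Myl9 lies at -4.91, Acta2 at -1.88 and Srf at -0.69, and in KPC these genes lie at 0.062, 0.086 and -0.026.

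Other contractile and anchoring genes of smooth muscle moved in both directions in ID8. Of 16 tested, 7 fell and 4 rose, with a median of -0.11, where 50.8% of all genes were called and 25.5% fell. Des, the muscle intermediate filament desmin, fell from 2.43 ± 0.383 to 0.929 ± 0.267 CPM (-1.38), Csrp1 from 287 ± 12.5 to 197 ± 16.5 CPM (-0.54) and Mylk, the kinase that phosphorylates the regulatory light chain, from 80.0 ± 5.74 to 57.2 ± 3.82 CPM (-0.48). Vcl, the adhesion protein vinculin, fell by 0.40. Smtn, smoothelin, was 166 ± 3.55 and 177 ± 7.65 CPM and did not pass the test. Lmod1, an actin nucleator of smooth muscle, was not tested in ID8. In KPC edgeR called 0 of 20, against 13.7% of all genes, with 4 at an unadjusted p under 0.05 and 1 called by DESeq2 and 1 by limma-voom.

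Of the TGF-beta pathway and response genes, 9 of 19 fell and 4 rose in ID8, with a median of -0.11, where 50.8% of all genes were called and 25.5% fell. Ccn2, a matrix protein that TGF-beta induces, fell from 30.5 ± 1.64 to 17.3 ± 1.4 CPM (-0.82) and the ligand Tgfb2 from 31.2 ± 1.63 to 19.9 ± 1.62 CPM (-0.65), while Ski, a repressor of SMAD signalling, rose from 102 ± 2.74 to 154 ± 4.49 CPM (0.60). Tgfb1 did not pass the test (0.13, edgeR adjusted p = 0.0638). In KPC 2 of 23 were called, against 13.7% of all genes, both lower, the signal transducers Smad4 (-0.34) and Smad2 (-0.38). Smad2 rose in ID8 by 0.17, and its difference between the lines was called.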

How the data were processed

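Expected counts per gene, as deposited by the authors in 4 tables, were made with HISAT and RSEM 1.2.8, with GRCm39 (mm39) as the genome, per the submitters' processing notes. The values show no normalization. Genes absent from a table were set to 0, and values were rounded to whole counts. RSEM shares ambiguous reads among genes of similar sequence. Group and replicate follow the labels. The members and all gene lists were chosen with earlier results of these data known. Tests used edgeR 4.0.16 in R 4.3.3 (TMM scaling, filterByExpr, robust quasi-likelihood F test, Benjamini-Hochberg adjustment over all genes tested, threshold 0.05), and the procedure was tested on simulated data. The SE is approximate (log2 change over the root of F). Each line was fitted alone, the wild-type lines together, and the interaction over 16 libraries. Ratios of summed counts carry exact binomial 95% intervals. Levels per kilobase used the longest protein-coding transcript of GENCODE M21, of another build, so they are approximate. Named genes are all members, Trp53bp1, fixed regulators, relatives and markers, and up to 3 called genes per list and line with the smallest adjusted p and at least 1 CPM. The 8 genes most like the members were named by Pearson r of log2(CPM + 1) minus genotype means, leaving out Gm, Rik and pseudogenes. Alternatives were DESeq2 1.42.0, its size factors, limma 3.58.1 voom with quality weights, other filters, a replicate block, a joint fit, a muscle covariate and leaving out libraries. The result of 1 gene list is not reported here.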

Additional observations from a re-analysis of the deposited data

Results flagged for a closer look

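For Myl9, Acta2 and Cnn1 the knockout difference differed between the lines in the edgeR interaction, by 4.99, 1.99 and 4.06 on the log2 scale for KPC minus ID8, values that the choice of these genes already used. Among their relatives and partners the interaction was called for Actg1 (1.13), Cnn2 (0.98), Actb (0.86), Myh9 (0.72), Myl12a (0.56), Myl12b (0.47), Mylk (0.53), Csrp1 (0.52) and Myh14 (1.76). It was called for the regulators Srf (0.69), Gata6 (-0.99), Ccn2 (0.87), Ski (-0.61), Smad2 (-0.52), Smad4 (-0.30), Limk1 (-0.43) and Cfl2 (-0.60). It was also called for Trp53bp1 (0.76) and for the markers Col1a1 (1.23), Pecam1 (1.58) and Krt8 (1.27). The Mylk, Limk1 and Cfl2 interactions lost their call in 14, 9 and 5 alternatives, and that of Cnn1 in 2. Cnn1 had 26 wild-type counts and 1 knockout count in ID8, too few to be fitted in ID8 alone. The host share of these transcripts was not tested.

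In 13 of 116 groups of 5 KPC libraries, 1 library lay far from the others by Dixon's ratio, where chance gives about 1 in 20. KPC wild-type replicate 2 was apart for Tpm1 at 4025 CPM, together with the muscle genes Des (934 CPM), Acta1 (7291 CPM), Ckm (4885 CPM) and Myh4 (8101 CPM), and was low for Smad4 (132 CPM). KPC wild-type replicate 4 was apart for Myh11 at 45.6 CPM, and for Rgs5 (189 CPM) and Arhgef1 (141.5 CPM). KPC knockout replicate 4 was apart for Ski (148.5 CPM) and Limk1 (43.0 CPM), and KPC wild-type replicate 1 for Tgfb2 (32.3 CPM) and Wwtr1 (168 CPM).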

How the results depend on the processing

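Acta2 and Myl9 kept their lower ID8 knockout level under every alternative run, and Tpm1 lost its call in the joint fit of 4 groups (-0.61). Of 39 ID8 and 152 KPC member values under alternatives, 38 and 148 kept their side of the threshold and did not cross 0 by more than 1 SE. In KPC 2 others were newly called and 2 crossed 0 by more than 1 SE uncalled. With no filter 6 ID8 members were called, adding Cnn1 (-4.29), Tpm2 (-2.19) and Myh11 (-4.10, from 6 counts against 0). Leaving out each library gave 3 to 5 ID8 members, the additions being Cnn1 and Tpm2, which then passed the filter. The members were chosen by this contrast and the added genes had few counts, so nothing is read from these numbers. In the main ID8 fit 50.8% of all genes tested were called. In KPC 1 member, Tpm2, was called without the libraries above 1000 CPM of Acta1. The libraries kept there still differed in muscle RNA between the genotypes. On leaving out each KPC library 0 to 1 member was called (Myh11, 0.47, without wild-type replicate 4). Genes called in ID8 fell to 2681 in the joint fit. Genes called in KPC were 3162 with DESeq2, 3174 with limma-voom, 403 with the muscle covariate, 3524 in the joint fit and 934 to 3106 on leaving out each library (3106 without wild-type replicate 4, 934 without wild-type replicate 1). Interaction genes called were 4972 with limma-voom. The r of the member score changed sign without Tpm1 and Tpm2 for skeletal muscle (-0.023), fibroblast (0.233) and leukocyte markers (0.053), and without the libraries farthest from the median for fibroblast (0.221) and endothelial markers (-0.06). The cause of these shifts was not tested. Another 141 values of named genes, short of the threshold in both settings, crossed 0 and were given no direction, among them Tpm1 (0.20) and Tpm2 (0.048) in KPC with the muscle covariate. That reading was chosen after the data were seen. With the replicate number as a block, ID8 had 5852 genes called and 3 members, and the only member call that changed was the Myh11 interaction (4.39). Libraries of the same number correlated from -0.529 to 0.542 in KPC and -0.126 to 0.16 in ID8. No consistent pairing of tumours by number was seen, and so few libraries cannot exclude one. Counts of a few reads limit Tagln, Cnn1, Tpm2, Actg2 and Myh11 in ID8.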
